A study of Mus musculus with 12 samples.

Results

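The messenger RNAs followed here are 6 that let a mouse oocyte signal to, or join with, the follicle cells around it: Gdf9, Bmp15, Bmp6, Fgf8, Kit and Gja4. They were chosen by gene symbol, 6 rows of the 56691 genes in the count table, and each symbol matched 1 row. RNA had been sequenced from oocytes of C57BL/6 wild-type mice (WT) and of mice of the same background with a total knockout of Alkbh5 (KO), in which exon 1 with the start codon was removed by CRISPR in every tissue, so the follicle cells of KO mice lacked the gene too. ALKBH5 is an enzyme that removes the N6-methyladenosine mark from RNA. Females were 3 weeks old and primed with PMSG, a gonadotropin, and their denuded oocytes were collected after 0 h in culture (germinal vesicle stage, GV), 4 h (germinal vesicle breakdown, GVBD) or 16 h (metaphase II, MII). Each of the 6 groups held 2 libraries, each of a pool of 10 oocytes by the study's methods or 20 by one of its legends. The study calls the 2 pools of a group biologically independent and states that oocytes of several mice were allocated at random, but not which mice went into which pool, so p-values measure the spread between these pools. The study reports that most KO oocytes did not pass GVBD and sampled by time, and whether KO oocytes were picked by stage was not found in its text, so at GVBD and MII genotype and stage reached cannot be told apart.

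The oocyte and its follicle cells depend on each other. GDF9 and BMP15, secreted by the oocyte, act through BMPR2 and type I receptors on granulosa and cumulus cells, where they drive proliferation, cumulus expansion and cumulus metabolism. BMP6 is a further oocyte ligand of that family, and FGF8 is a fibroblast growth factor that acts on cumulus cells together with BMP15. KIT is the receptor on the oocyte for KIT ligand made by granulosa cells, and connexin 37, the product of Gja4, forms the gap junctions through which cumulus cells pass small molecules to the oocyte. During maturation the oocyte transcribes almost nothing, so a change in a level is a change in RNA already made, and in a poly(A)-primed library it can also reflect the length of the tail, which was not measured.

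By GENCODE M21 on GRCm38 all 6 are protein-coding genes. Gdf9 (ENSMUSG00000018238) lies on the plus strand at chr11:53431023-53437904 and Bmp15 (ENSMUSG00000023279) on the minus strand at chrX:6314107-6320721. Bmp6 (ENSMUSG00000039004) lies on the plus strand at chr13:38345107-38500302 and Fgf8 (ENSMUSG00000025219) on the minus strand at chr19:45736798-45742915. Kit (ENSMUSG00000005672) is on the plus strand at chr5:75574916-75656722 and Gja4 (ENSMUSG00000050234) on the minus strand at chr4:127311421-127314039. The last exon of Bmp6 shares 224 bases with Txndc5 on the opposite strand, which had 987 to 3657 counts per library, and use of strand in the counting is not given in the sources used here, so Bmp6 counts may hold reads of Txndc5. The nearest gene to Gdf9, Uqcrq, starts 192 bases away on the opposite strand, shares no exon base with it and had 171 to 1192 counts.

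The 3′ ends of these RNAs are shown because maternal RNAs are stored, translated and removed through signals there. Each line gives 30 bases of the last exon, inside the 3′ untranslated region, 5′ to 3′ on the RNA strand with T for U, and capitals mark the cytoplasmic polyadenylation element (searched as TTTTAT or TTTTAAT) and the polyadenylation signal (AATAAA or ATTAAA), on the RNA strand only:
Gdf9 (chr11:53437862-53437891): gtggTTTTATgtgacggaagAATAAActgt
Bmp15 (chrX:6314125-6314154): gtattttcttaatcttaaagAATAAAtttt
Bmp6 (chr13:38500273-38500302): ctttaaaaaaaaaaagtttatttagaaagt
Fgf8 (chr19:45736798-45736827): acaaaagagaggctctatttttgtattcca
Kit (chr5:75656676-75656705): tgacagttctgaagaattctAATAAAaatg
Gja4 (chr4:127311433-127311462): tccactgtttatgatcctcaAATAAAcagg
Gdf9 held a TTTTAT starting 39 bases from the annotated end and an AATAAA 23 bases from it. Bmp15, Kit and Gja4 held the AATAAA without a polyadenylation element in the last 100 bases, Bmp6 held a TTTTAT 79 bases from the end without a signal in the last 40 bases, and Fgf8 held neither. Over the 3′ ends of 19594 protein-coding genes, 17.89% had such an element in the last 100 bases, 73.42% a signal in the last 40 and 13.6% both. GGACT, a form of the sequence in which N6-methyladenosine is placed, occurred once in the 3′ untranslated regions of Bmp15, Kit and Gja4 and not in those of Gdf9, Bmp6 and Fgf8, against 58.28% of genes with at least 1. These regions ran from 192 bases in Fgf8 to 2177 in Kit. Over the whole transcript every member held GGACT, 4 times in Bmp6, 3 in Bmp15 and 2 in each of the others. These are matches of letters in annotated transcripts, and the annotated end need not be the end used in oocytes.

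Total counts ran from 28.6 to 40.2 in units of 1e6 per library, and Alkbh5 itself had 5355 to 10181 counts in WT and 54 to 143 in KO libraries. All 12 listed oocyte markers were present, with summed levels of 22540 to 37230 counts per 1e6 endogenous counts (CPM). Of the 20 cumulus and granulosa markers, Amhr2 was at 0 in every library, Foxl2 reached at most 5 counts and Amh at most 4, and the summed level of 157.5 to 461.3 CPM came mostly from Serpine2, Cyp19a1 and Nr5a2. Other follicle cell markers at low counts did not move alike from GV to MII in WT. Inha was at 46 and 123 counts in WT GV and 0 in both WT MII libraries. Star was at 87 and 103 against 15 and 20, and Lhcgr at 91 and 26 against 4 and 15. Kitl went the other way, at 77 and 138 counts in WT GV against 263 and 227 in WT MII. The summed level of the 20 markers was 157.5 to 194.5 CPM in WT GV and 372.7 to 389.9 CPM in WT MII. The 10 theca and stroma markers summed to 2.59 to 94.5 CPM. Collagens varied within groups: Col1a1 counts of the WT GV pair were 28 and 531, those of the WT GVBD pair 194 and 987, and those of the KO MII pair 227 and 0. Col3a1 counts of the same pairs were 18 and 450, 454 and 1196, and 203 and 0. Pdgfra counts of the same pairs were 13 and 186, 50 and 592, and 82 and 0. Dcn, at 350 and 294 counts, and Acta2, at 56 and 54, did not follow them at WT GVBD. At WT GV and KO MII Dcn went the same way as the collagens, at 65 and 294 and at 106 and 26. Replicate 1 of WT GVBD stood apart in the genes described here, with Gdf9 at 1029 CPM against 2122 in its partner and Kit at 112.1 against 62.5.

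To compare RNA per pool, counts were scaled to ERCC spike-in RNA, synthetic RNA added to each tube, by multiplying each count by the mean ERCC total of the 12 libraries over that of its own library. The 6 genes differed widely in level. Per length, in transcripts per 1e6 (TPM), Gdf9 stood at 1742 ± 346 (SD, n = 2) in WT GV oocytes, ranked 81 and 112 among 22065 and 23038 genes with counts in those libraries. Bmp15 followed at 550 ± 27.8 TPM and Gja4 at 59.4 ± 17.6. Bmp6 at 13.9 ± 1.44 and Kit at 12.6 ± 0.283 did not differ beyond their spread, and Fgf8 was lowest at 5.63 ± 0.209 TPM. Length here was the union of annotated exons, 8911 bases for Kit and 3900 for Bmp6. Their transcripts whose 3′ ends are shown above have 5214 and 3593 bases. The order of Kit and Bmp6 can thus change with the length used. In WT MII oocytes the order was Gdf9 at 4001 ± 199 TPM, Bmp15 at 1204 ± 151, Kit at 19.2 ± 1.59, Gja4 at 8.47 ± 1.03, Bmp6 at 5.45 ± 1.48 and Fgf8 with no counts. With this length Gja4 and Bmp6 were thus below Kit at MII, after standing above or level with it at GV.

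The members fell into a pair of patterns over maturation. Gja4, Bmp6 and Fgf8 lost most of their RNA between GVBD and MII in WT oocytes, whereas Gdf9, Bmp15 and Kit did not pass the test on the spike-in scale. The plot of spike-in scaled counts shows all 12 libraries. Where pairs of libraries are described as not overlapping, the share of all genes that do the same was not counted.

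**Figure D1:**
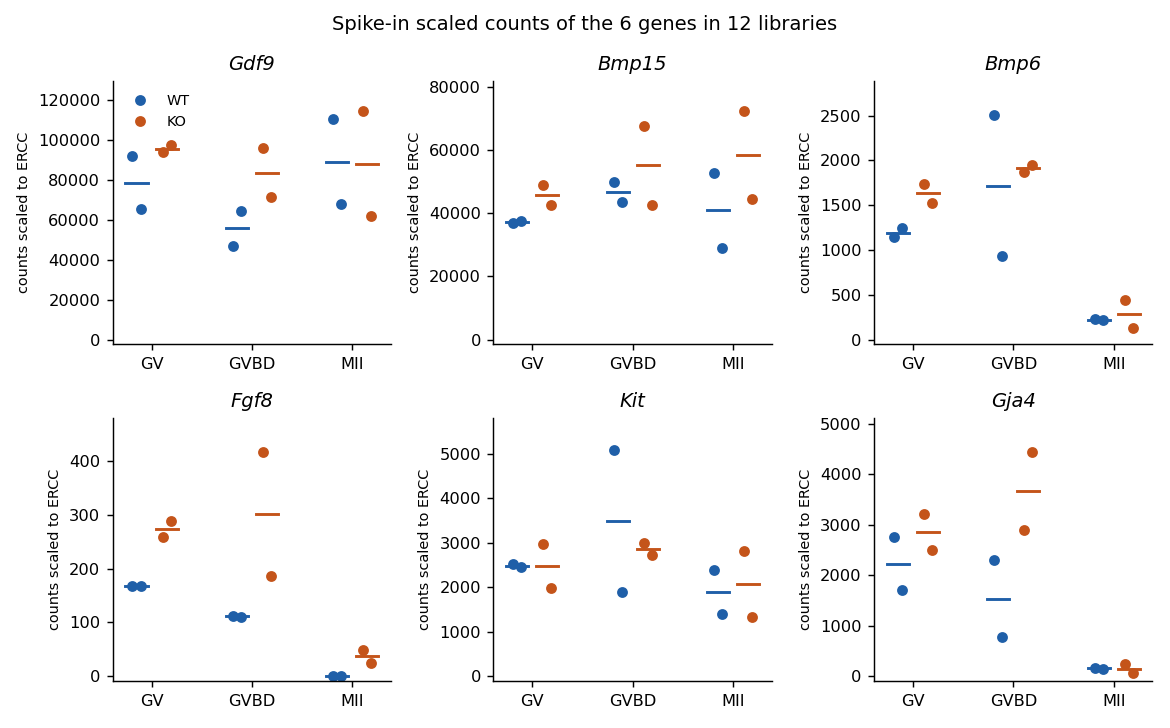
Spike-in scaled counts (y axes, from 0, with a separate range for each gene) of the 6 genes at GV, GVBD and MII in WT (blue) and KO (orange). Points are libraries and bars the mean of 2; for Bmp6, Fgf8 and Gja4 every MII point lies below every GV and GVBD point of its genotype, and the WT MII libraries of Fgf8 are at 0.

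Gja4, the oocyte's connexin, had spike-in scaled counts of 2754 and 1701 (GV), 2293 and 777 (GVBD) and 171 and 134 (MII) in the WT pairs. The KO pairs held 3204 and 2504 (GV), 2891 and 4435 (GVBD) and 233 and 63.7 (MII). Both genotypes were thus low at MII in each library, with no overlap with the earlier stages. From GV to MII the log2 fold change was -3.87 ± 0.56 (SE) in WT, 14.6-fold lower, with an adjusted p of 1.45e-10 by edgeR's quasi-likelihood test with Benjamini-Hochberg adjustment over all genes tested. In KO it was -4.27 ± 0.82, 19.3-fold lower, with an adjusted p of 0.0366. The KO call was lost without replicate 1 or without replicate 2 of KO GV, at adjusted p of 0.401 and 0.222, when the lone GV library is assumed to vary like the MII pair, and its direction stayed. Endothelial cells also make connexin 37. The summed level of 10 endothelial markers, mostly Pecam1, was 83.8 to 89.2 CPM in WT GV and 133.8 to 161.7 CPM in WT MII, while Esam went from 15 and 14 to 4 and 3 counts. On the spike-in scale none of the 10 passed from GV to MII in WT and their median was -1.03, beside -1.06 over all genes. The part of endothelial RNA in the Gja4 result was not tested.

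Bmp6, the BMP-type ligand, had spike-in scaled counts of 1139 and 1248 (GV), 2504 and 930 (GVBD) and 226 and 219 (MII) in the WT pairs. Those of the KO pairs were 1737 and 1523 (GV), 1875 and 1949 (GVBD) and 440 and 127 (MII). Again the MII libraries of each genotype lay below all others, and the 2 KO MII libraries were further apart than the WT pair. The fitted change from GV to MII was -2.42 ± 0.54 in WT, 5.36-fold lower, with an adjusted p of 5.77e-05. Without replicate 1 or 2 of WT GV that adjusted p was 0.0614 or 0.0836. In KO the change was -2.52 ± 0.78 with an adjusted p of 0.0878, which did not pass.

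Fgf8 was the least abundant member and gave the largest change from GV to MII in WT, while in KO Gja4 fell further. WT GV libraries held 142 and 119 counts, WT GVBD libraries 84 and 124, and both WT MII libraries 0, at totals of 37.6 and 40.2 in units of 1e6. The KO pairs held 142 and 226 counts (GV), 253 and 169 (GVBD) and 49 and 35 (MII). On the spike-in scale the WT means were 168 ± 0.473 (SD, n = 2) at GV and 111 ± 2.01 at GVBD, and the KO means 273 ± 21.1, 301 ± 163 and 37.1 ± 16.9. Set against a floor of 3 counts per library, WT MII was at least 87.6-fold lower than WT GV and passed the test with an adjusted p of 2.05e-13 (edgeR). The KO MII mean was 7.38-fold lower than the KO GV mean, at a log2 fold change of -2.88 ± 0.86 and an adjusted p of 0.0809. The floor covers counting error only, and how many molecules stood behind each count is unknown.

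Gdf9, the most abundant of the ligands, showed no such change on the spike-in scale. Its scaled counts in the WT pairs were 91783 and 65362 (GV), 46753 and 64549 (GVBD) and 110545 and 67805 (MII). Those of the KO pairs were 93864 and 97310 (GV), 96145 and 71216 (GVBD) and 114403 and 61945 (MII). GV and MII overlapped in both genotypes, and the fitted GV to MII changes were 0.18 ± 0.41 in WT and -0.12 ± 0.46 in KO. Bmp15, its partner in heterodimers, had 36903 and 37462 (GV), 49869 and 43497 (GVBD) and 52715 and 29032 (MII) scaled counts in the WT pairs. The KO pairs had 48906 and 42433 (GV), 67673 and 42572 (GVBD) and 72161 and 44532 (MII). The changes from GV to MII were 0.14 ± 0.43 in WT and 0.35 ± 0.47 in KO, smaller than their errors.

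Kit, the receptor for KIT ligand, had 2511 and 2448 (GV), 5093 and 1901 (GVBD) and 2376 and 1390 (MII) scaled counts in the WT pairs. The WT GVBD value of replicate 1 was the highest of all 12. The KO pairs held 2964 and 1990 (GV), 2986 and 2717 (GVBD) and 2819 and 1340 (MII), overlapping throughout. In WT both MII values lay below both GV values. Changes from GV to MII were -0.40 ± 0.48 in WT and -0.25 ± 0.63 in KO, and neither passed. Kit also marks mast cells, whose 10 markers summed to 0.457 to 4.99 CPM, with 3 at 0 in every library, beside 44.3 to 112.1 CPM of Kit.

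These changes must be read against a fall of most genes. In WT, 5747 of 18816 tested genes (30.5%) were lower at MII than at GV, with an adjusted p under 0.05 and at least a 2-fold change, and 74 were higher. Of the 6 members 3 were lower and none higher, and the median log2 change over all tested genes was -1.06. Markers of other cells moved in the same comparison: 5 of 14 tested cumulus and granulosa markers were lower, with a median of -1.60, and 5 of 8 tested theca markers, with a median of -2.18, Star and Lhcgr being on both lists. Their part in the changes of Gja4, Bmp6 and Fgf8 was not tested. Relative to the median of all genes, Gdf9 and Bmp15 were 1.25 and 1.2 above and Kit 0.67 above, while Bmp6 lay -1.36 and Gja4 -2.80 from it. In KO the call was made for 615 of 18777 genes as lower (3.28%) and 1 as higher, with a median of -1.17, and 1 of 6 members, Gja4, was lower. That KO count rested on single libraries: 39 and 53 genes were lower without replicate 1 or 2 of KO GV, and 11013 and 3431 without replicate 1 or 2 of KO MII, so it is not to be set against the WT share. TMM scaling, which sets library sizes so that most genes stay level, moved the medians to -0.14 in both genotypes, and the calls to 1593 higher and 3053 lower in WT and to 224 higher and 727 lower in KO. On that scale, as a share of the RNA that remained, Gdf9 and Bmp15 in WT were higher at MII, at 1.08 ± 0.26 and 1.03 ± 0.18 on the log2 scale with adjusted p of 0.0277 and 0.0117, although on the spike-in scale neither passed. The WT changes of Kit then turned to 0.50 ± 0.18 with an adjusted p of 0.0878. Bmp6 at -1.43 ± 0.28 and Gja4 at -2.93 ± 0.35 stayed lower in WT.

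**Figure D2:**
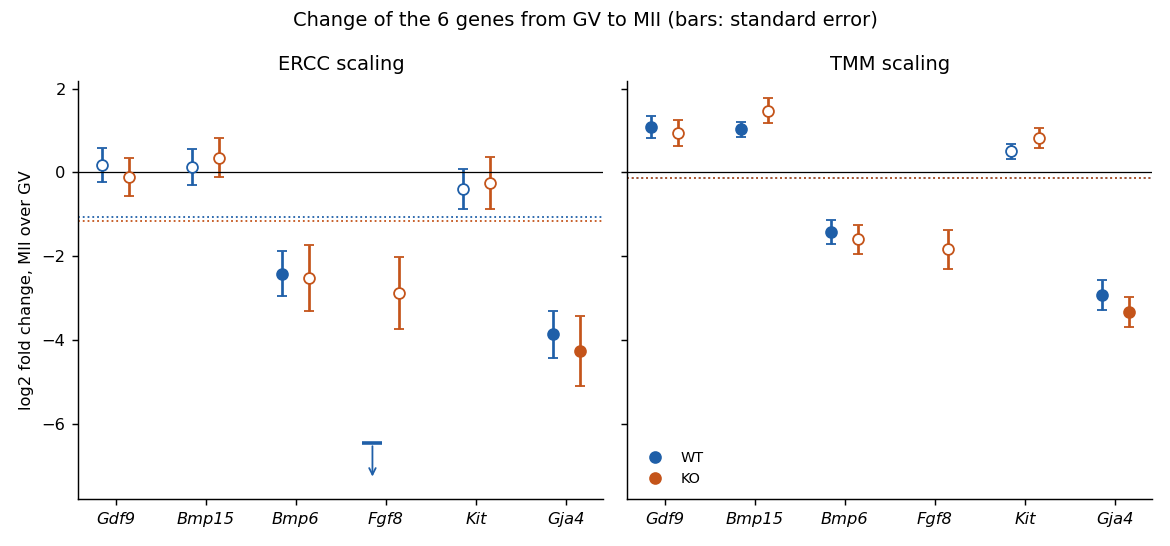
Log2 fold change of MII over GV (y axis) for the 6 genes in WT (blue) and KO (orange), with counts scaled to ERCC (left) or by TMM (right). Bars are standard errors, filled points passed an adjusted p of 0.05 and a 2-fold change, dotted lines are the median over all tested genes, and the arrow is the bound for Fgf8 in WT, which had 0 counts at MII and is not drawn on the right; Bmp6, Fgf8 and Gja4 lie below the dotted lines and Gdf9, Bmp15 and Kit above them on both scales.

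In CPM, the share of each library, the GV and MII libraries of Gdf9 did not overlap in either genotype. How many of all genes part in this way was not counted. WT GV libraries were at 2165 and 1635 CPM and WT MII libraries at 3734 and 3570, and KO libraries at 1819 and 2164 CPM at GV and 3222 and 2804 at MII. Bmp15 rose from 871 and 937 CPM in WT GV to 1781 and 1529 in WT MII, a rise that passed under TMM and median-of-ratios scaling and not on the spike-in scale. KO libraries of Bmp15 held 948 and 944 CPM at GV and 2033 and 2016 at MII, with an adjusted p of 0.054 under TMM scaling. Gja4 was at 65.0 and 42.6 CPM in WT GV and 5.79 and 7.05 in WT MII libraries.

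**Figure D3:**
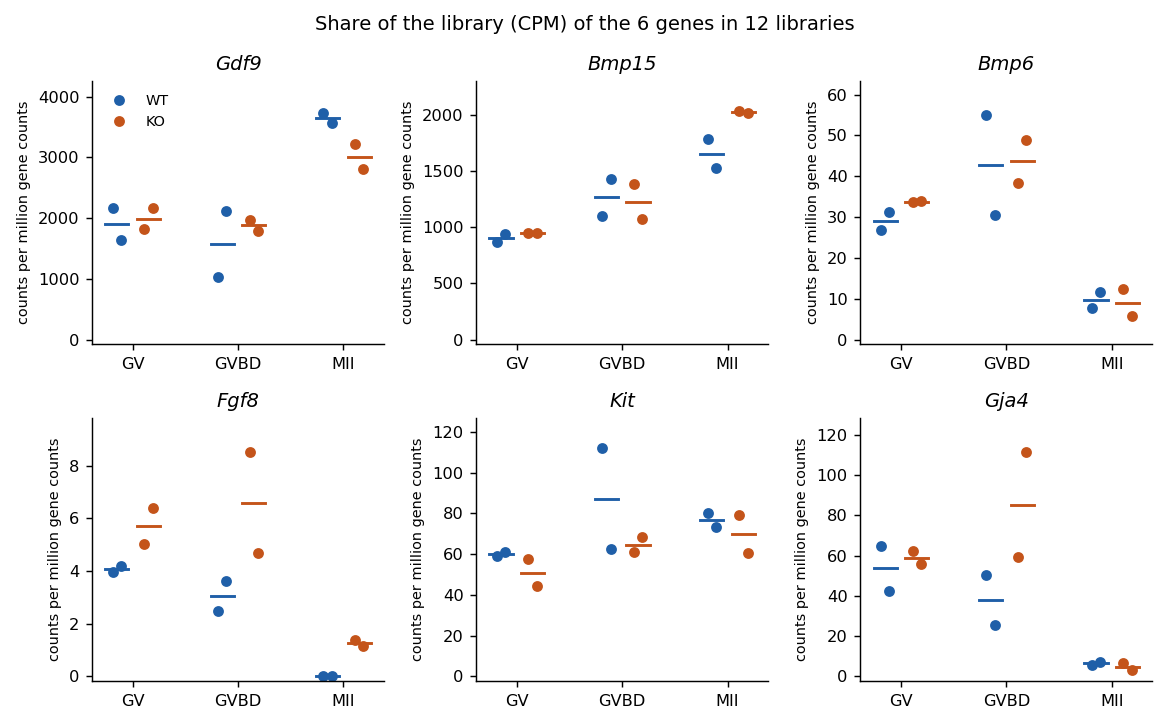
Counts per 1e6 endogenous counts (y axes, from 0) of the 6 genes at GV, GVBD and MII in WT (blue) and KO (orange), points for libraries and bars for the mean of 2. As a share of the library the MII points of Gdf9 and Bmp15 lie above the GV points of both genotypes, and those of Bmp6, Fgf8 and Gja4 below them.

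Within a library, ratios between members need no scaling. Bmp15 had 40.2 to 71.9 counts per 100 Gdf9 counts in 11 libraries and 106.7 in replicate 1 of WT GVBD. This ratio was 40.2 and 57.3 in WT and 52.1 and 43.6 in KO at GV, and 47.7 and 42.8 in WT and 63.1 and 71.9 in KO at MII. Neither gene passed between KO and WT at MII. How many other pairs of genes part the genotypes in this way was not counted, and the ratio was not tested. Gja4 went from 3.00 and 2.60 per 100 Gdf9 counts in WT GV to 0.155 and 0.198 in WT MII, and from 3.41 and 2.57 to 0.204 and 0.103 in KO. Bmp6 went from 1.24 and 1.91 to 0.204 and 0.323 in WT and from 1.85 and 1.57 to 0.385 and 0.205 in KO. Kit stayed between 2.05 and 3.82 in 11 libraries, with 10.9 in replicate 1 of WT GVBD.

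The calls fell between GVBD and MII. Between GV and GVBD no member passed the test in either genotype, with 10 of 19566 genes (0.0511%) called in WT and 42 of 19064 (0.22%) in KO. From GVBD to MII the same 3 genes were lower in both genotypes. In WT 27.1% of 19211 genes were lower, and Gja4 changed by -3.33 ± 0.74 (adjusted p 0.000114), Bmp6 by -2.95 ± 0.72 (adjusted p 0.000521) and Fgf8 from 84 and 124 counts to 0, at least 57.9-fold lower. Without replicate 1 of WT GVBD, Fgf8 alone still passed, with adjusted p of 0.187 for Bmp6 and 0.112 for Gja4. In KO 7.12% of 17966 genes were lower, and the changes were -4.63 ± 0.90 for Gja4 (adjusted p 0.00256), -2.75 ± 0.84 for Bmp6 (0.0395) and -3.02 ± 0.96 for Fgf8 (0.0488). No member passed in KO without replicate 1 or 2 of KO GVBD or without replicate 2 of KO MII, where the adjusted p of Gja4 was 0.211, 0.312 and 0.0505. Over all genes, 37 and 35 were lower in KO without replicate 1 or 2 of KO GVBD, and 6307 and 11 without replicate 1 or 2 of KO MII. Under TMM scaling Gdf9 was called higher from GVBD to MII in WT, at 1.52 ± 0.35 with an adjusted p of 0.0287. These comparisons share libraries with those of GV to MII and are not independent of them.

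KO and WT oocytes were compared at each stage, to ask whether loss of the demethylase altered these signals. At GV, 19 of 19452 genes (0.0977%) were called and no member was. Log2 fold changes of KO over WT ran from -0.0020 ± 0.24 for Kit to 0.70 ± 0.34 for Fgf8, with adjusted p from 0.319 to 0.999, and the median of all genes was 0.36. On the spike-in scale the KO GV mean was 1.22 to 1.63-fold the WT GV mean for each member but Kit, at 0.999-fold. The median of all genes was shifted the same way, and under TMM scaling the changes of Gdf9 and Bmp15 were -0.06 and -0.05. At GVBD, 494 of 19462 genes (2.54%) were called and again no member, with Fgf8 at 1.43 ± 0.61 (adjusted p 0.261) and Gja4 at 1.26 ± 0.57 (adjusted p 0.299) the furthest from 0. Both KO values of Gja4, 2891 and 4435 scaled counts, were above the WT values of 2293 and 777, and Gdf9 and Fgf8 parted likewise. How many of all genes did so was not counted, and the median of all genes was 0.23.

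At MII, 141 of 17566 genes (0.803%) were called and Fgf8 was the only member among them. Its 49 and 35 counts in KO against 0 and 0 in WT gave a KO mean at least 19.3-fold higher on the spike-in scale, with an adjusted p of 0.0157, and KO was higher in 2 of 2 libraries. The call was lost under TMM scaling, at an adjusted p of 0.0917, and without replicate 1 or replicate 2 of WT MII, at adjusted p of 0.99983 and 0.99999. The other 5 members ranged from -0.04 ± 0.98 for Gja4 to 0.51 ± 0.60 for Bmp15, with adjusted p of 0.9999, and standard errors of 0.56 to 0.98 on the log2 scale limit what could be seen with 2 libraries a group. Figla, an oocyte transcription factor gene whose RNA also falls by MII in WT, held 811 and 161 counts in KO MII libraries against 64 and 61 in WT MII. Of the other oocyte markers called lower by MII in WT, Zp1, Zp2 and Zp3 held more counts in KO MII than in WT MII libraries. Ooep and Padi6 overlapped there. None of the 12 oocyte markers passed between KO and WT at MII, Figla included. Gja4 and Bmp6, which also fell by MII in WT, had KO MII means 0.972 and 1.27-fold those of WT MII. Whether the KO MII libraries held oocytes that had not reached metaphase II, and its part in the Fgf8 result, was not tested.

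Over the 3 stages together, with stage as a term, 278 of 22004 genes (1.26%) were called and no member, with Fgf8 at 2.15 ± 0.76 and an adjusted p of 0.157. Whether the GV to MII change itself differed between genotypes was tested as an interaction, in which 0 of 20807 genes (0.0%) were called by edgeR, 1197 having an unadjusted p under 0.05. Fgf8 had an adjusted p of 0.22 there, against 0.0347 under TMM scaling and 0.00612 by the DESeq2 Wald test. Over all genes TMM scaling called 63 higher and 8 lower there, and DESeq2 91 and 63. A genotype difference in the fall of Fgf8 thus passed under some scalings and tests and not under the one used throughout.

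**Figure D4:**
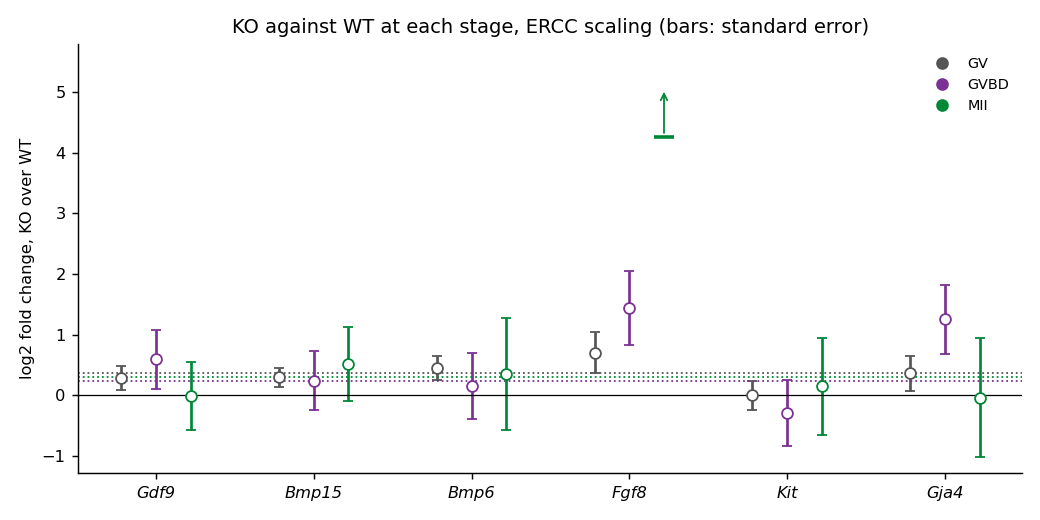
Log2 fold change of KO over WT (y axis) for the 6 genes at GV (grey), GVBD (purple) and MII (green), with counts scaled to ERCC. Bars are standard errors, dotted lines the median of all tested genes at each stage, open points did not pass the threshold, and the arrow is the bound for Fgf8 at MII, where WT had 0 counts and the test passed; all other points lie between -0.29 and 1.43.

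The pathways around the members were followed with 7 lists of 98 genes in all. From GV to MII in WT, 12 of the 71 genes tested (16.9%) were lower and 2 (2.82%) higher on the spike-in scale. Among all genes 30.5% were lower, and the median of the tested genes was -0.55 beside -1.06 over all genes. Under TMM scaling Gja1, Tgfb3 and Grem1 stayed lower and Oosp1 and Fgf9 higher. The other genes that were lower on the spike-in scale no longer passed. Frs2, Pik3r1, Cdh1, Cdh2, Fstl3, Tgfb2, Oosp3 and Smad1 were then called higher, beside 1593 higher and 3053 lower calls over all genes. On the spike-in scale none of 73 passed in KO, against 3.28% lower among all genes, and the median was -0.67 beside -1.17. Between KO and WT none passed at GV or MII, where 0.0977% and 0.803% of all genes were called. At GVBD 1 passed, against 2.54% of all genes. It was Tgfb1, a growth factor, lower in KO by -3.29 ± 0.88 (adjusted p 0.0479), in the libraries where stromal Col1a1 was lower as well. The part of stromal RNA in the Tgfb1 result was not tested. With shares this low, 0 or 1 calls say little about the pathways. Values of pathway genes below are on the spike-in scale unless another scaling is named.

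Of the receptors and SMADs for GDF9, BMP15 and BMP6, 15 of 18 were tested from GV to MII in WT and 1 passed, Smad9, an effector of BMP signals, at -2.89 ± 1.04 (adjusted p 0.0203) on at most 64 counts. Bmpr1b, the most abundant of the list, had 1572 to 3730 counts per library and a change of -0.10 ± 0.48, and Bmpr2, the type II receptor of GDF9 and BMP15, 0.04 ± 0.49. Among the 9 tested of 12 genes of ligand processing and antagonism, Grem1, a BMP antagonist, was at 28 and 77 counts in WT GV and 0 in both WT MII libraries, and passed. Furin, the most abundant and a protease that matures such ligands, had 158 to 473 counts. Among 17 other TGF-beta and FGF ligands, 10 were tested: Tgfb3 at -2.43 ± 0.56, Inhba at -2.62 ± 0.89 and Fgf1 at -1.68 ± 0.63 were lower, and Fgf9 was higher at 1.77 ± 0.71. Inhba is an inhibin and activin subunit made by granulosa cells and had 130 counts in the WT GV library with more collagen RNA and 16 in the other. Tgfb2, the most abundant of them, had 14891 to 59397 counts and did not pass on the spike-in scale. Under TMM scaling it was higher at 1.54 ± 0.23 (adjusted p 0.00721, edgeR).

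The FGF receptors Fgfr1 and Fgfr2 had 76 to 278 and 312 to 893 counts, with changes of 0.03 ± 0.61 and 0.06 ± 0.53 in WT from GV to MII, and Fgfr3 and Fgfr4 had at most 20 and 29 counts. Spry1, a feedback inhibitor of FGF signalling, was lower at MII in WT, at -1.91 ± 0.59 (adjusted p 0.00632), 1 of 7 tested on its list. Of the Kit list all 16 genes were tested and 3 were lower: Grb2 at -1.59 ± 0.58 and Pik3cb at -1.35 ± 0.51, both carriers of the signal from KIT, and Pik3r2 on at most 75 counts. Kitl, the ligand, had 73 to 263 counts per library and a change of 0.16 ± 0.63. Of the connexins and junction partners 10 of 19 were tested and 2 were lower, Gja1, the connexin of cumulus cells, at -3.08 ± 0.69 and Gja10 at -2.75 ± 1.05. Gja1 had 198 and 211 counts in WT GV and 31 and 78 in WT MII libraries, beside 2321 and 1206 and 215 and 278 counts of Gja4. A list of 7 further genes, drawn as other secreted oocyte products, held Oosp1, Oosp2, Oosp3, Astl, Nppc, Npr2 and Ptgs2. That label does not hold for all of them, as Npr2 is on the cumulus and granulosa list too. Of these genes 4 were tested, Oosp1 was higher at 1.02 ± 0.40 and Oosp2 lower at -1.67 ± 0.43, and the median was 0.14.

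**Figure D5:**
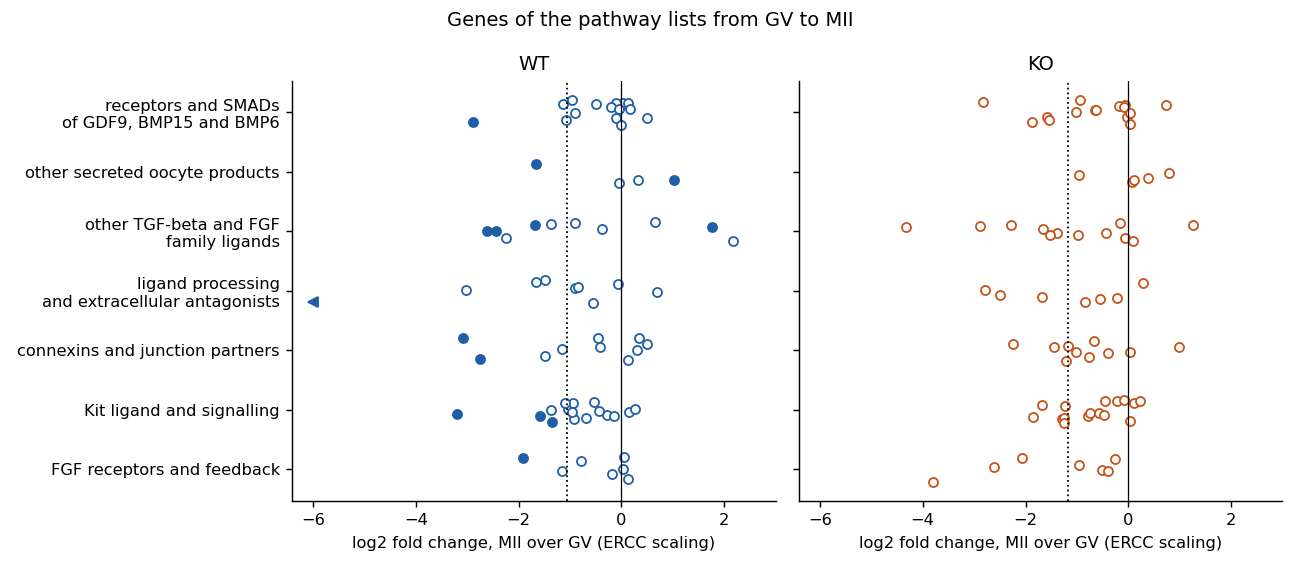
Log2 fold change of MII over GV (x axis, counts scaled to ERCC) of the tested genes of 7 pathway lists in WT (left) and KO (right). Each point is a gene, filled where it passed the threshold, the triangle is Grem1, which had 0 counts in WT MII, drawn at the left edge, and the dotted lines are the medians of all tested genes; 14 points are filled in WT, 2 of them higher, and none in KO.

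Genes with a profile most like each member's were sought by Pearson correlation of log2(CPM + 1) after TMM scaling over the 12 libraries, among 10662 genes whose mean was 50 counts or more. For Gja4 these were Gorasp2, Gadd45gip1 and Mdh2 at r of 0.98 to 0.99, and for Bmp6 Tbc1d25, Hmgn1 and Smap2 at 0.98 to 0.99. For Fgf8 they were Mecr, C1qb and Cct3 at 0.98 to 0.99. Gdf9 was nearest to Pax2, Cdk5 and Banp at 0.98 to 0.99 and Bmp15 to Sytl4, Rfpl4 and Tnfsf13b at 0.97 to 0.98. For Kit the nearest, Aftph, Tspyl4 and Prr23a3, reached 0.88 to 0.89. Among the members themselves Bmp6 and Gja4 correlated at 0.94, Gdf9 and Bmp15 at 0.78, and Gdf9 and Bmp6 at -0.93. All these values describe libraries that share stages and scaling and carry no test.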

How the data were processed

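Poly(A) RNA of pooled oocytes was, according to the study's methods, reverse transcribed with template switching (a SMART-seq type protocol) and amplified, while the extraction protocol in the labels describes a bulk preparation. The deposited values are counts, whole numbers per gene with no normalization. By the submitters' processing notes the authors used cutadapt 1.9, HISAT2 2.0.4 and StringTie 1.3.4d on mm10, and the annotation release, whether counting used strand, and how whole-number counts were made are not given in the sources used here. The counts of a library sum to more than the uniquely mapped reads listed for it, so a count is not exactly 1 read, and since no molecular identifiers were used, intervals and floors cover counting error only.

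Libraries were grouped by the genotype and stage in their labels. Each comparison was fitted to all genes by the two-sided quasi-likelihood test of edgeR 4.0.16 in R 4.3.3 (glmQLFit, then glmQLFTest), with library sizes in proportion to summed ERCC counts (221927 to 838409 per library, over 92 sequences), the filterByExpr filter and Benjamini-Hochberg adjustment over all tested genes. A call needed an adjusted p under 0.05 and an absolute log2 fold change of at least 1. Standard errors were taken from the fold change and the F statistic. TPM used the union of exons in GENCODE M21. Scripts were tested on simulated counts. The members, the gene lists and the rule for named genes (the 6 members, list genes past the threshold, the most abundant of a list or a member's receptor, ligand or partner, the 3 genes most like each member, Alkbh5 and overlapping genes) were chosen with earlier results of these data known. Figla and the other named oocyte markers at MII, and the named markers of follicle, stromal and endothelial cells, were given after their values were seen. Alternatives were scaling by TMM, by median of ratios or by those ERCC sequences that reached 10 counts throughout, no filter, or a filter of 10 counts in each library, the Wald test of DESeq2 1.42.0, 1 model for all 12 libraries, a replicate block, calls without a fold minimum, and leaving out each library. Crossed replicate numbers were added after seeing the data.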

Additional observations from a re-analysis of the deposited data

How the results depend on the processing

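With 2 libraries a group, the calls of single members depended on the fit, while the directions of Gja4, Bmp6 and Fgf8 from GV to MII and from GVBD to MII were lower in every alternative run. Of 463 fitted values of members under alternatives, 373 kept their direction and their side of the threshold, 26 passed where the reported value had not, 25 no longer passed and 39 changed sign, none of these past the threshold. The cause of these differences was not tested, beyond the smaller number of libraries or genes in some fits.

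From GV to MII in WT, TMM and median-of-ratios scaling each called 5 members, 3 lower and 2 higher, in place of 3. Over all genes they called 1593 and 1812 higher in place of 74. In KO the count of members was 3 in place of 1 in 5 fits. These were no filter, at least 10 counts in every library, DESeq2, all 12 libraries in 1 model and the replicate block. Over all genes these fits called 2446 to 3052 lower in place of 615. The count of members also changed with libraries left out. From GVBD to MII both scalings gave 1 member in place of 3 in KO and 4 in place of 3 in WT, where Gdf9 was higher at 1.52 and 1.58 with adjusted p of 0.0287 and 0.0238. No filter gave 2 in KO, and leaving out libraries gave 0 to 3 in KO and 1 to 3 in WT. KO against WT at MII gave 0 members in place of 1 under both scalings, with the filter of 10 counts (which drops Fgf8) and with the replicate block, and 0 to 1 with libraries left out. Over all stages 1 member, Fgf8, was called with no filter, by DESeq2 and with all 12 libraries in 1 model. Over all genes these fits called 886, 1037 and 337 higher and 295, 319 and 112 lower, in place of 198 and 80. The interaction of genotype with the change from GV to MII gave 1, Fgf8, under both scalings, with no filter and by DESeq2. Over all genes these fits called 63, 110, 135 and 91 higher and 8, 9, 211 and 63 lower, in place of 0 and 0. The count of members also changed with libraries left out. ERCC sequences with at least 10 counts and calls with no fold minimum changed no count of members.

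Signs turned, without a call, under TMM and median-of-ratios scaling, in that order, as follows. In KO against WT at GV, Gdf9 was -0.059 and -0.0564, Bmp15 -0.0544 and -0.0535, and Gja4 -0.0061 and -0.00408. At GVBD Bmp15 was -0.0843 and -0.0756 and Bmp6 -0.0135 and -0.0129. At MII Bmp6 was -0.146 and -0.157 and Kit -0.152 and -0.155. From GV to MII Kit was 0.505 and 0.551 in WT and 0.817 and 0.843 in KO, and Gdf9 0.95 and 0.979 in KO. With single libraries left out, KO against WT ranged from -0.317 to 0.258 for Kit at GV. At GVBD it ranged from -0.133 to 0.536 for Bmp15, -0.389 to 1.04 for Bmp6 and -0.837 to 0.585 for Kit. At MII it ranged from -0.526 to 0.379 for Gdf9, -0.811 to 0.985 for Bmp6, -0.491 to 0.582 for Kit and -1.26 to 0.611 for Gja4. From GV to MII it ranged in WT from -0.213 to 0.493 for Gdf9 and -0.357 to 0.504 for Bmp15, and in KO from -0.626 to 0.259 for Gdf9, -0.0364 to 0.66 for Bmp15 and -0.886 to 0.187 for Kit.

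The correlation of deviations of libraries with the same replicate number lay between -0.22 and 0.22 over the 2-group comparisons. With 1 difference per group it cannot show whether the numbers paired the libraries, and the block values are given for completeness. Crossed numbers were run for each 2-group comparison. Where that correlation was under -0.1 they called 0 members at GV and 0 at MII for KO against WT and 1 in place of 3 from GVBD to MII in KO. Elsewhere they called 1 in place of 3 from GVBD to MII in WT and changed no other count of members. Over all genes, the DESeq2 Wald test called 530 higher and 136 lower in KO at GV (edgeR 11 and 8), 476 and 425 at GVBD (157 and 337) and 260 and 86 at MII (88 and 53), and 16 and 3052 from GV to MII in KO (1 and 615), and the replicate block 8 and 2454 for the last. With single libraries left out, the genes lower at MII than at GV numbered 2712 to 5328 in WT and 39 to 11013 in KO, and those lower than at GVBD 1763 to 5254 in WT and 11 to 6307 in KO. For KO against WT, GV gave 0 to 422 higher and 0 to 95 lower genes, GVBD 0 to 208 higher and 5 to 605 lower, and MII 0 to 419 higher and 8 to 323 lower.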
